A study of Mus musculus with 6 samples.

Results

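The core splicing factor genes examined here encode proteins of the spliceosome's small nuclear ribonucleoproteins (snRNPs), the branch point factor SF3, the 3′ splice site factor U2AF and the serine/arginine-rich (SR) proteins. They were taken by name: every row that starts with Snrp, with Snrnp, Sf3a, Sf3b, Srsf or U2af followed by a digit, and without "-ps", in tables of reads counted per gene. The rule found 41 genes among the 14165 rows of the table of pooled oocytes and 43 among the 54658 gene rows of the single-oocyte table, and 41 genes were in both. Srsf12 and Snrpert were found in the single-oocyte table only. Snrpert is annotated as a processed pseudogene, so 42 of the 43 rows are protein-coding genes. By role they fall into 3 proteins of the U1 particle, 8 rows for the Sm ring, 11 for the U2 particle, 3 for U2AF, 3 for the U4/U6.U5 tri-snRNP, 3 for the minor spliceosome and 11 SR proteins.

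The spliceosome removes introns from pre-mRNA in a series of rearrangements. U1 recognises the 5′ splice site, U2AF and the U2 particle recognise the 3′ splice site and the branch point, and the U4/U6.U5 tri-snRNP then joins to form the catalytic centre; SR proteins bind exons and help to choose splice sites. Fully grown mouse oocytes stop transcribing before they mature, so an oocyte arrested at metaphase II (MII), the stage that waits for fertilisation, lives on stored maternal mRNA and makes little new pre-mRNA to splice.

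All samples were mouse MII oocytes whose polyadenylated RNA was copied with Smart-seq2, which amplifies cDNA of whole transcripts from very small inputs. The aged sample held 59 oocytes and the young sample 35, untreated and each made into a library of its own. Pools of 10 oocytes from young mice made up the remaining 4 samples: 2 had received a control short interfering RNA (siCtrl) and 2 one directed at Plat (siPlat), the gene of tissue-type plasminogen activator. The study asked how oocytes differ with age and what the loss of Plat does to them. The labels gave no strain, no age in months and no animals, so p-values from the pools measure only the spread between these libraries, which may be technical.

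Gene counts were 12142884 to 17475952 per pool, 5480050 to 11894782 per young oocyte and 2018226 to 9502184 per aged oocyte. Plat itself stood at 441 and 439 CPM (gene counts scaled to a common total of 1000000) in siCtrl and only 51.4 and 39.0 CPM in siPlat. In 21 of the 59 aged libraries, mitochondrially encoded genes took 6.78% to 61.6% of gene counts, against 0.947% to 2.97% in the other 38 aged libraries and 0.688% to 1.92% in young. The 12 oocyte markers (among them Gdf9, Zp3 and Nlrp5) were low in these 21 libraries and summed to 838 to 3335 CPM per library, against 14060 to 24810 in the other 38 and 14590 to 25300 in young. Values of aged oocytes are therefore given with and without these 21 libraries. The 12 cumulus and granulosa markers summed to 48.3 to 106.7 CPM per young oocyte and 26.1 to 90.7 CPM in the 38 aged oocytes, with Foxl2, Amh, Amhr2 and Fshr at 0 counts in all young oocytes and Amhr2 and Ptx3 at 0 in all of the 38. The 7 stroma and endothelium markers had a median sum of 173 CPM in young and 110 CPM in the 38 aged oocytes, with ranges of 102 to 234 and 75.1 to 178 that overlapped, and Cdh5 was at 0 in both groups. The 8 blood and immune markers summed to 4.74 to 21.2 CPM per young oocyte and 3.82 to 19.0 CPM in the 38 aged oocytes. In the 21 libraries they summed to 0 to 182 CPM, with a median of 1.39. The part of these markers in the results was not tested.

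The sequences below show the region upstream of the members on which the age comparison turns. They are the 250 bases before the annotated transcription start of Snrnp70 and Snrpd3, which had the highest ratios of aged over young when CPM of gene counts were compared without the 21 libraries; Snrpd3 did not keep this place with all aged oocytes or with spike-in scaling. Both come from RefSeq on build GRCm38.p6, with Snrnp70 at chr7:45395743-45395992 on the minus strand and Snrpd3 at chr10:75517792-75518041 on the plus strand. Each is written 5′ to 3′ along its gene. In the GENCODE gene models used for exon lengths, Snrpd3 starts earlier, at 75517551, so by them the Snrpd3 window lies inside the gene. Capitals mark the letters GCATGCGC or their reverse complement in Snrnp70, and CCAAT or its reverse complement in Snrpd3.
Snrnp70: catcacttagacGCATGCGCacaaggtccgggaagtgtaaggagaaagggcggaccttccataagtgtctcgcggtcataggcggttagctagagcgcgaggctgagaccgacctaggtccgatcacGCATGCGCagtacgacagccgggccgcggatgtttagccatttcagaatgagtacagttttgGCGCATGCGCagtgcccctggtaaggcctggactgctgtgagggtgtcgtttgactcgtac
Snrpd3: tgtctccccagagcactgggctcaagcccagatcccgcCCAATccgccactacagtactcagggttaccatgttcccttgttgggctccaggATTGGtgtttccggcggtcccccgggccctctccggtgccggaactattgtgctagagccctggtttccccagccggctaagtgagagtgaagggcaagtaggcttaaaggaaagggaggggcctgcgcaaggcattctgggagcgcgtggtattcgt
The Snrnp70 window held 4 matches to GCATGCGC, starting at positions -238, -123, -61 and -59 from the transcription start, and the last pair overlap each other. GCATGCGC is the core of the sequence known to be bound by the transcription factor NRF1. It was chosen after the Snrnp70 sequence had been read, so the shares below that include Snrnp70 are descriptions and no test. At least 4 matches were present in 13 of all 32851 promoter entries, and at least 1 match in 2.256% of them. RefSeq entries were found for 36 of the members, 45 entries in all, and 4 of the 45 (8.889%) held GCATGCGC: those of Snrnp70, Srsf11, Srsf7 and U2af1l4. CCAAT was in 13 of the 45 entries (28.89%) against 33.85% of all entries, and GGGCGG, the GC box, in 29 of 45 (64.44%) against 32.74%. Both strands were searched for each motif. A match describes letters in this window and says nothing about the factor.

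In young oocytes the members spanned a wide range of levels, compared here as CPM per kilobase of merged exons. Snrnp27, a protein of the tri-snRNP, was highest at 170 CPM per kilobase, followed by the Sm ring genes Snrpe at 115 and Snrpg at 81.6 and by Snrpb2, which encodes the U2 protein B″, at 80.8. Snrpd1 (76.8) and Sf3b1 (63.6), the branch point subunit with the most counts of all members at 723 CPM, came next. Snrpg, Snrpb2 and Snrpd1 differed from each other by less than the spread of each between oocytes. With the longest transcript as length, 3 of these 4 leaders stayed among the first 4, with Snrpd1 in the place of Snrpb2.

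The lowest members were Srsf12 at 0.03 CPM per kilobase, U2af1l4 at 0.06, and Snrnp35 and Snrnp25 of the minor spliceosome at 0.20 and 0.40. The Sm ring genes Snrpd2 (0.48), Snrpf (0.52) and Snrpb (0.71) followed. Of the 43 members, 37 had counts in every young oocyte, and 34 reached 5 CPM in the young sample. Srsf12 had counts in 7 of 35 young oocytes and U2af1l4 in 16.

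The Sm ring is built from 1 copy each of B/B′ (or N), D1, D2, D3, E, F and G, yet the RNA levels of its genes differed by far more than their spread between oocytes. Snrpe was at 119 to 210 CPM per young oocyte (median 157), Snrpd1 at 106 to 215 (median 156) and Snrpg at 76.9 to 203 (median 125). Snrpd2 was at 0 to 4.57 CPM (median 1.21) and Snrpb at 0.15 to 4.40 (median 1.29). Per kilobase, the sample values were 115, 76.8 and 81.6 for the first 3 genes and 0.48 and 0.71 for Snrpd2 and Snrpb, and the CPM ranges over oocytes did not overlap between these sets. Low values for Snrpb and Snrpd2 were found in the pools too, at 1.40 and 6.43 CPM (Snrpb) and 3.30 and 4.38 CPM (Snrpd2) in siCtrl 1 and 2.

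Snrpn encodes SmN, the paralog that can take the place of SmB/B′ in the ring and is best known from neurons. It was at 4.38 to 14.8 CPM per young oocyte (median 8.58). Per kilobase the sample values were 4.20 for Snrpn and 0.71 for Snrpb. In the siCtrl pools Snrpn was at 28.3 and 36.2 CPM. Counts of these paralogs can be separated only where their sequences differ. Their coding sequences, 723 and 696 bases long, were 77.46% identical, and the longest stretch shared without a mismatch, shown here to give the scale of the ambiguity, was 32 bases.
Snrpb and Snrpn shared run: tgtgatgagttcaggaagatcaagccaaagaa
Only 0.09% of the 50-base windows of the Snrpb transcript occurred in another gene's transcript. For Snrpn, 34.1% of exon bases overlapped another gene, Snurf among them, whose coding region lies on the same transcript, so its count is uncertain.

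Snrpf and U2af1l4 differed between the tables more than any other member. Snrpf, the F protein of the Sm ring, was at 0.45 CPM in the young sample, where it ranked 38th per length, and at 362 and 366 CPM in the siCtrl pools, where it ranked highest. U2af1l4, a paralog of the small U2AF subunit, was at 0.10 CPM in the young sample and at 37.2 and 43.2 CPM in siCtrl. Other genes overlap 85.4% of the exon bases of Snrpf and 66.1% of those of U2af1l4, and 89.5% and 97.2% of their 50-base windows occurred in transcripts of another gene, the highest shares among the members. The main neighbour over Snrpf, Ccdc38, was at 3.48 CPM in the young sample and at 62.8 and 80.6 CPM in siCtrl 1 and 2. The tables were normalised separately, and whether they were counted in the same way was not tested. Levels of these members are therefore uncertain, as are those of Srsf4, Snrpn and Srsf2, the other members with over 20% of exon bases overlapped.

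**Figure D1:**
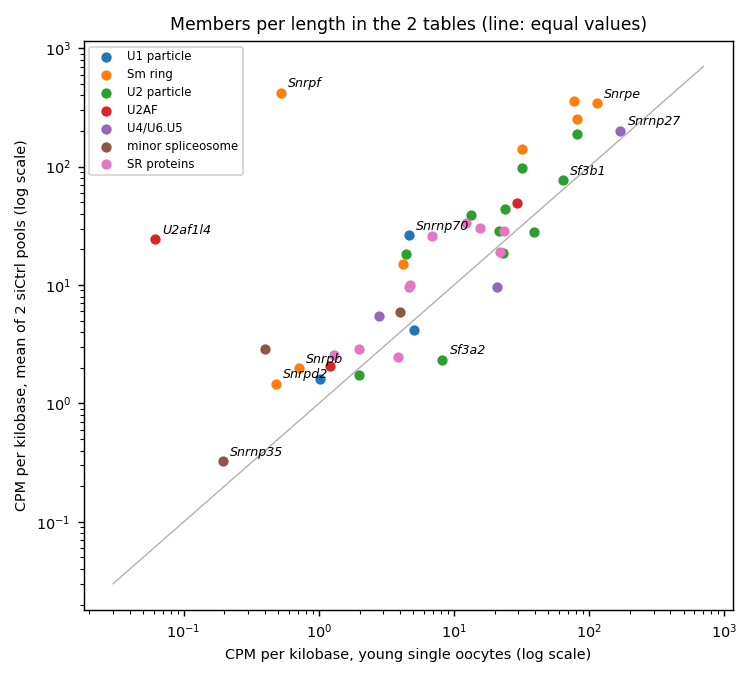
Levels of the 41 members found in both tables, as CPM per kilobase of merged exons in the young single-oocyte sample (x axis, log scale) and as the mean of the 2 siCtrl pools (y axis, log scale), coloured by role; the line marks equal values. Snrpf and U2af1l4 lie far above the line, and Snrpb, Snrpd2 and Snrnp35 are low on both axes.

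The other members at 5 CPM or more in the young sample were on average higher in the pools: the ratio of siCtrl to young CPM had a median of 1.84 over 33 members and was above 1 for 25. It ranged from 0.285 for Sf3a2 to 5.70 for Snrnp70. These values are set side by side only, since tables and cell numbers differ. The ratio was not computed over all genes, so it does not show whether members differ from other genes in this respect.

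Most members were steady from oocyte to oocyte. Over the 35 young oocytes, the coefficient of variation (SD divided by the mean) of the 26 members at 20 CPM or more had a median of 0.174, against 0.219 for the 5134 genes at that level. Sf3b1 varied least, at 0.078, with 595 to 839 CPM per oocyte (median 716). Sf3a3 (0.120), Srsf10 (0.128) and Snrpe (0.137) came next. At the other end were Srsf2 (0.330), Sf3b3 (0.376), Sf3a2 (0.461) and Snrnp70 (0.627). Srsf2, Sf3b3 and Sf3a2 were also the 3 lowest of the 26 members in level, at 20.2 to 21.8 CPM.

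Snrnp70 stood apart in this respect. It encodes U1-70K, the protein that contacts the U1 RNA and through which SR proteins recruit U1 to the 5′ splice site. Its level in young oocytes ran from 4.33 to 100.6 CPM with a median of 28.0, and its coefficient of variation of 0.627 was above that of 99.73% of genes at 20 CPM or more. In the 38 aged oocytes it ran from 88.7 to 201 CPM with a median of 151 and a coefficient of variation of 0.177, above 19.66% of genes. The gene is spread over 7618 exon bases at chromosome 7, 45376453 to 45395742 (minus strand, GRCm38), and 0 of its exon bases overlap another gene.

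Across the 35 young oocytes, the genes of other splicing factors that followed Snrnp70 most closely were Prpf38b, Cdk11b, Zrsr2 and Sart3, with Spearman rank correlations of 0.903, 0.900, 0.892 and 0.821. Prpf38b is a factor related to the tri-snRNP protein Prp38, Cdk11b a kinase known in human cells to phosphorylate SF3B1, Zrsr2 a factor of the 3′ splice site in minor introns, and Sart3 a recycling factor for U4/U6. They were the 4 of 140 listed genes above 0.8, a value passed by 16 of 8228 genes at 5 CPM or more. Of the other 33 members at 5 CPM or more, 0 passed it, and U2af1 was highest at 0.642. In the 38 aged oocytes the same 4 correlations were 0.432, 0.298, 0.319 and 0.563. All points share library preparation and depth, and these values are descriptions. The rank correlation of Snrnp70 in young oocytes was 0.004 with gene counts, 0.065 with the number of genes detected and -0.046 with the mitochondrial share, but 0.582 with the share of ERCC spike-in reads, synthetic RNA added in a known amount. Spike-in counts split the young libraries into separate sets, at 70141 to 110006 and at 184609 to 427387. Snrnp70 was at 4.33 to 45.9 CPM in the lower set and at 17.8 to 100.6 CPM in the upper. Its coefficient of variation and the correlations above cover both sets together. The part of the spike-in share in the variation of Snrnp70 was not tested.

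The comparison of aged with young oocytes rests on 1 sample per age, so there is no replicate check and no test. Counts were summed over oocytes, and ratios are given on the log2(CPM + 1) scale; 1.5-fold was used as the mark of a clear difference. Without the 21 libraries of high mitochondrial share, 3 of 35 members at 5 CPM or more were past 1.5-fold higher in aged oocytes, against 8.87% of all genes at that level, and 0 members were past 1.5-fold lower, against 1.87%. The members' median log2 ratio was 0.08, the same as that of all genes. Core splicing factor genes as a whole were therefore placed like other genes. Of the members, 22 were above 0 and 13 below, against 5028 above and 3385 below among all 8413 genes. The 3 that stood out were Snrnp70, Snrpd3 and Snrpc. Of these, Snrnp70 alone stayed above 0 with the spike-in scaling described below, which sums over both young spike-in sets.

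Snrnp70 was at 35.2 CPM in the young sample (95% Poisson interval 34.5 to 35.9, which covers counting error only) and at 150.9 CPM (149 to 152) in the 38 aged oocytes, a log2 ratio of 2.07. Per oocyte, 37 of the 38 aged values lay above the highest young value of 100.6 CPM. The siCtrl pools of oocytes labelled young held 203 and 199 CPM of Snrnp70, above every young single oocyte and next to the highest of the 38 aged ones at 201 CPM, in a table that was normalised separately.

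Snrpd3, the D3 protein of the Sm ring, was at 84.9 to 150 CPM per young oocyte (median 107) and at 138 to 232 CPM in the 38 aged oocytes (median 172). The ranges overlapped, but 34 of 38 aged values lay above all young ones, and the log2 ratio was 0.68. Snrpc, the U1 protein that stabilises pairing with the 5′ splice site, was at 2.45 to 11.6 CPM in young (median 6.66) and 4.85 to 16.8 CPM in aged oocytes (median 10.3), with a log2 ratio of 0.60. Here 13 of 38 aged values lay above the young range, so the groups overlapped widely. The remaining U1 protein gene, Snrpa, was at 7.11 to 21.9 CPM in young (median 15.4) and 4.60 to 26.6 CPM in aged oocytes (median 15.2), with a log2 ratio of 0.08.

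**Figure D2:**
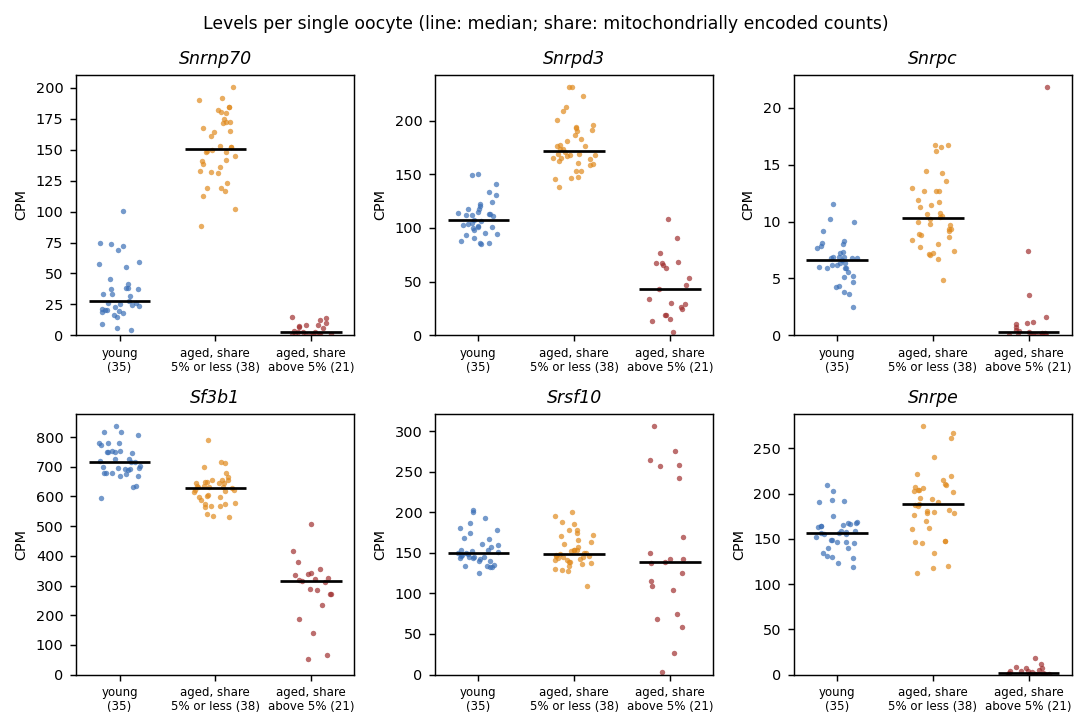
CPM per single oocyte (y axes, linear) for 6 members in 35 young oocytes, 38 aged oocytes with a mitochondrial share of 5% or less and 21 aged oocytes above it; each point is 1 oocyte and the line is the median. Snrnp70 and Snrpd3 are higher in most of the 38 aged oocytes than in young ones. With spike-in scaling over both young spike-in sets, Snrpd3 turns to a log2 ratio of -0.15. Sf3b1 is lower in the 38, with wide overlap. In the 21 libraries Snrpe is near 0, while Srsf10 is scattered around the level of the others.

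Within the roles, all 5 Sm ring genes at 5 CPM or more were above 0 without the 21 libraries (median log2 ratio 0.22). Among all genes at that level, 5028 of 8413 were above 0. The Sm ring genes ran from Snrpd1 at 0.15 through Snrpg at 0.19, Snrpn at 0.22 and Snrpe at 0.24 to Snrpd3. With spike-in scaling over both young spike-in sets, 0 of these 5 were above 0. Both U2AF genes at that level were also above 0 by gene counts, and below 0 with spike-in scaling over both young sets. U2af1, the small subunit that reads the AG of the 3′ splice site, was at 49.6 to 129 CPM in young (median 74.1) and 47.1 to 151 CPM in the 38 aged oocytes (median 100.3), a log2 ratio of 0.40. U2af2, the large subunit that binds the polypyrimidine tract, had a ratio of 0.46, and 10 of 38 aged oocytes lay above the young range. Other genes' transcripts held 59.4% of the 50-base windows of U2af1 and 29.9% of those of U2af2, so their counts are less certain. The tri-snRNP helicase gene Snrnp200, whose protein unwinds U4 from U6, had a ratio of 0.32.

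The U2 particle was divided. Of its 11 genes, 6 had ratios above 0 and 5 below, between -0.22 and 0.21. Sf3b1 was at 530 to 792 CPM in the 38 aged oocytes (median 630), below its young median of 716, with 10 of 38 under the lowest young value and a log2 ratio of -0.22; Sf3a2 had the same ratio of -0.22. Genes of SR proteins lay close to 0: 3 were above it and 6 below, with a median of -0.07, and Srsf10 was at 154 CPM in the 38 aged oocytes and 153 CPM in young. All these values are within 1.5-fold.

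With all 59 aged oocytes the ratios were lower. The members' median log2 ratio was -0.24 against -0.07 for all genes; 2 of 35 were past 1.5-fold higher, against 9.45% of all genes, and 1 was past 1.5-fold lower, against 9.38%. Snrnp70 (1.64) and U2af2 (0.60) were the higher members and Sf3a2 (-0.61) the lower. The next ratios by size were those of Snrnp48 of the minor spliceosome (-0.56), Sf3b4 (-0.53), Sf3b1 (-0.45), Srsf7 (-0.43), Srsf2 (-0.41), Sf3b5 (-0.40) and Srsf4 (-0.39). Without the 21 libraries, these 7 lay between -0.22 and 0.04.

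Scaling to the ERCC spike-in reads in place of gene counts moved all ratios down. In the 38 aged oocytes against young, the median of all genes shifted to -0.71 and that of the members to -0.74. Snrnp70 then had a log2 ratio of 1.24 and stayed above 0, while Snrpd3 (-0.15) and Snrpc (-0.14) turned below 0, though both remained above the median of all genes. Spike-in reads took 0.676% to 5.19% of the reads counted in young and 1.98% to 6.34% in these aged libraries. Spike-in counts of young libraries fell into separate sets, at 70141 to 110006 and at 184609 to 427387. The 38 aged libraries held 117428 to 431162. The ratios with spike-in scaling sum over both young sets. Ratios against either young set alone were not computed, so the turns below 0 hold only for both sets together. Less RNA per aged oocyte and a different amount of spike-in cannot be told apart, and the part of these sets was not tested. With all 59 aged oocytes and spike-in scaling, Snrnp70 was at 0.18 against a median of -1.43 for all genes.

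**Figure D3:**
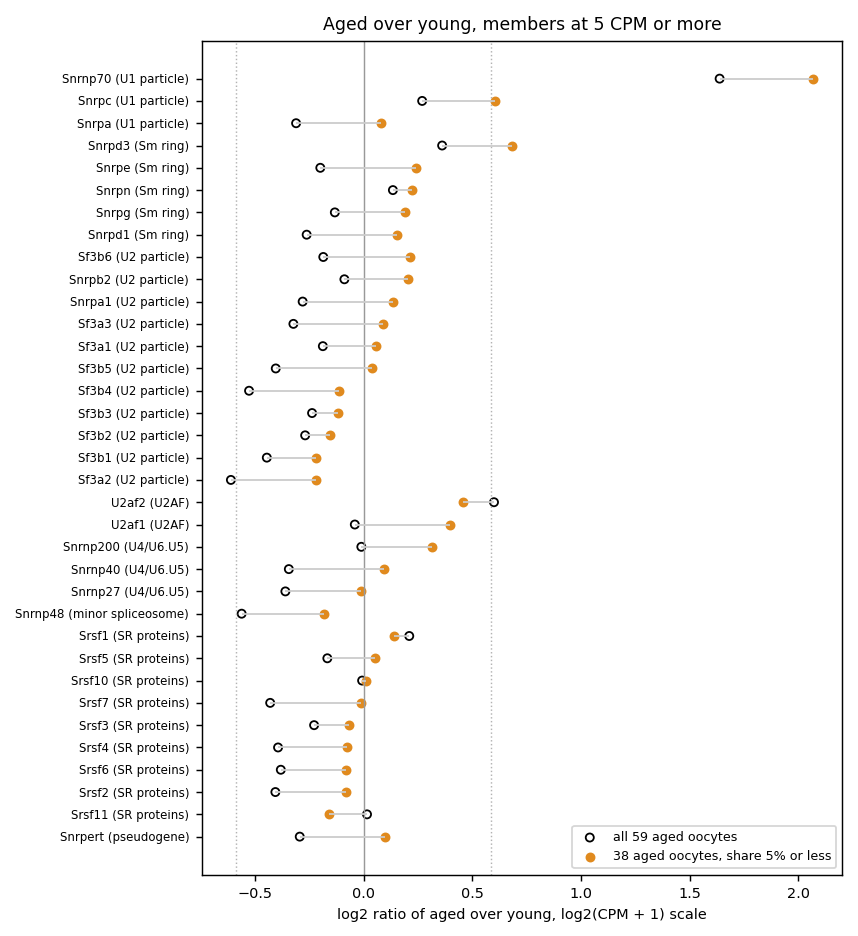
Log2 ratio of aged over young CPM (x axis, log2(CPM + 1) scale) for the 35 members at 5 CPM or more, grouped by role; open circles use all 59 aged oocytes and filled circles the 38 with a mitochondrial share of 5% or less. Dotted lines mark 1.5-fold. Snrnp70 is far to the right in both, and most members move to the right when the 21 libraries are left out.

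The 21 libraries of high mitochondrial share differed from the other 38 aged ones in nearly every member, again as a description of 1 sample. Of 34 members at 5 CPM or more, 27 were past 1.5-fold lower, against 58.5% of all genes, and 0 were past 1.5-fold higher, against 14.8%; the median log2 ratio was -1.98 for members and -0.94 for all genes. With mitochondrial genes left out of the total these medians were -1.57 and -0.48. The lowest ratios were those of Sf3b5 (-5.40), Snrpe (-5.15), Snrnp40 (-5.04) and U2af1 (-4.90). Snrpe was at 0 to 18.1 CPM per library with a median of 1.22, below all 38 other aged oocytes and all young ones. Snrnp70 was at 0 to 14.7 CPM with a median of 2.60, and Snrpd3 at 2.73 to 108 with a median of 42.7.

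A few members held their level in the sum over these libraries. Srsf11 was at 52.8 CPM against 35.3 in the other 38 (log2 ratio 0.57), U2af2 at 10.3 against 7.21 (0.47) and Srsf1 at 15.1 against 12.5 (0.25). Medians per library were 46.2 against 34.4 CPM for Srsf11, 8.44 against 6.42 for U2af2 and 10.4 against 12.8 for Srsf1. Single libraries of the 21 ran from 2.32 to 112 CPM for Srsf11, 0 to 31.2 for U2af2 and 0.18 to 63.9 for Srsf1. Srsf10 was at 148 CPM against 154, although single libraries ran from 2.87 to 306 CPM. Among SR proteins the median was -1.05, near that of all genes, whereas it was -3.11 in the U2 particle and -3.02 in U1. Scaled to spike-in reads, all 34 members were below 0, between -6.30 and -0.91.

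**Figure D4:**
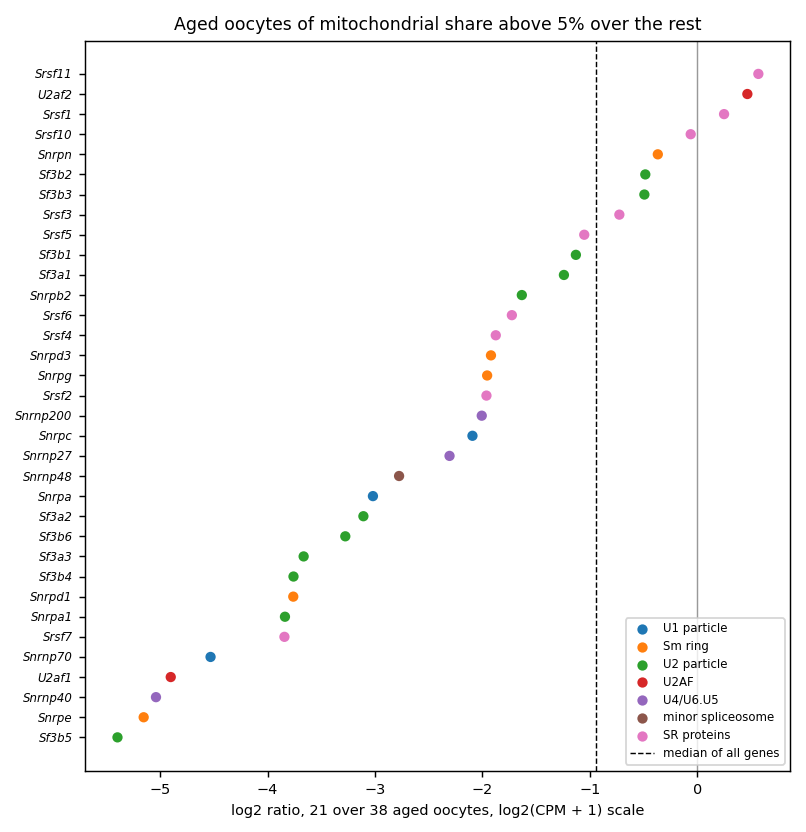
Log2 ratio (x axis, log2(CPM + 1) scale) of the 21 aged oocytes with a mitochondrial share above 5% over the other 38 for the 34 members at 5 CPM or more, ordered by ratio and coloured by role; the dashed line is the median of all genes at -0.94. Ratios run from -5.40 for Sf3b5 to 0.57 for Srsf11.

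In the pools, where each group had 2 libraries, the question was whether loss of Plat changed these genes. The quasi-likelihood test of edgeR with Benjamini-Hochberg adjustment called 0 of the 40 members tested at an adjusted p under 0.05, while it called 3.54% of all 11136 genes. At an unadjusted p under 0.05 there were 14 members, 10 higher and 4 lower in siPlat, against 18.8% of all genes. DESeq2 called 6 members, against 4.67% of 14064 genes, a share in which genes given no adjusted p count as not called. The 6 were Sf3b5, Snrnp27, Snrpb2, Srsf3 and Srsf5 with higher values and Snrnp200 with a lower value in siPlat. With limma-voom 0 members were called. With no low-count filter edgeR called 1 member, Snrnp200, against 4.13% of all genes. The members' median log2 fold change was 0.16, against -0.03 for all genes. Of the members, 25 were above 0 and 15 below, against 5321 above and 5815 below among all 11136 genes. An adjusted p above 0.05 does not show that the members were alike in both groups. The pools held 0 spike-in entries, so neither RNA per oocyte nor the number of intact oocytes was measured. In a pool of 10 oocytes, a difference in one cannot be told apart from a difference in the other.

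The smallest adjusted p among members was that of Snrnp27, the member highest per length in young oocytes. It was at 376 and 364 CPM in siCtrl and at 601 and 488 CPM in siPlat. Both siPlat values lay above both siCtrl values, with a log2 fold change of 0.56 (SE 0.16; edgeR adjusted p = 0.0849). Snrnp200, from the same tri-snRNP, was at 47.5 and 38.0 CPM in siCtrl and at 19.3 and 28.4 CPM in siPlat, without overlap in the other direction (log2 fold change -0.84, SE 0.24; edgeR adjusted p = 0.0864). Leaving out siPlat 2 brought the edgeR test to 10 called members against 9.66% of all genes, and leaving out any other library to 0.

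Snrnp70 was at 203 and 199 CPM in siCtrl and at 127 and 155 CPM in siPlat. The siPlat values were both lower, with a log2 fold change of -0.51 (SE 0.17). The 95% interval, a normal approximation likely too narrow with 2 pools per group, was -0.84 to -0.17. The difference did not pass the test (edgeR adjusted p = 0.133). The other U1 genes differed less: Snrpa had a log2 fold change of -0.31 (SE 0.29) and Snrpc of 0.35 (SE 0.30). Snrpd3 was at 501.5 and 467 CPM in siCtrl and at 688 and 497 CPM in siPlat, values that overlapped (log2 fold change 0.29, SE 0.18; edgeR adjusted p = 0.418).

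In the Sm ring, log2 fold changes ran from 0.46 for Snrpg to -1.80 for Snrpb. Snrpb had 25 and 91 counts in siCtrl and 13 and 14 counts in siPlat, so its change rested largely on siCtrl 2 (SE 0.73; edgeR adjusted p = 0.210). Snrpn, at 28.3 and 36.2 CPM in siCtrl and 33.5 and 30.0 CPM in siPlat, had a log2 fold change of -0.02. Snrpd1, among the 10 members called without siPlat 2, was at 780 and 701 CPM in siCtrl and at 1109 and 833 CPM in siPlat (log2 fold change 0.39, SE 0.17; edgeR adjusted p = 0.236 with all 4 libraries). In the U2 particle, Snrpb2 had 561.5 and 524 CPM in siCtrl against 941 and 658.5 CPM in siPlat (log2 fold change 0.56, SE 0.18; edgeR adjusted p = 0.122), and Sf3b5, a small subunit of SF3B, had 180 and 154 CPM in siCtrl against 245 and 237 CPM in siPlat (log2 fold change 0.53, SE 0.16; edgeR adjusted p = 0.108, DESeq2 adjusted p = 0.0341). Sf3b3 had the lowest value of the particle at -0.71 (SE 0.26). Sf3b1 was at 890.5 and 857 CPM in siCtrl and at 836 and 1036 CPM in siPlat, with overlap and a log2 fold change of 0.10 (SE 0.15).

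Among SR proteins, Srsf3 was at 287.5 and 236 CPM in siCtrl and at 388 and 374.5 CPM in siPlat (log2 fold change 0.54, SE 0.16; edgeR adjusted p = 0.0968). Srsf5 and Srsf1 had log2 fold changes of 0.53 each, and Srsf9 the highest of all members at 0.80 from 4.20 and 4.31 to 7.93 and 6.91 CPM (SE 0.35). Srsf10 had 135 and 132 CPM in siCtrl against 130 and 135.5 CPM in siPlat, a log2 fold change of -0.01. In all, siPlat lay above siCtrl without overlap for 15 members, against 23.5% of all genes, and below for 8, against 25.8%.

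**Figure D5:**
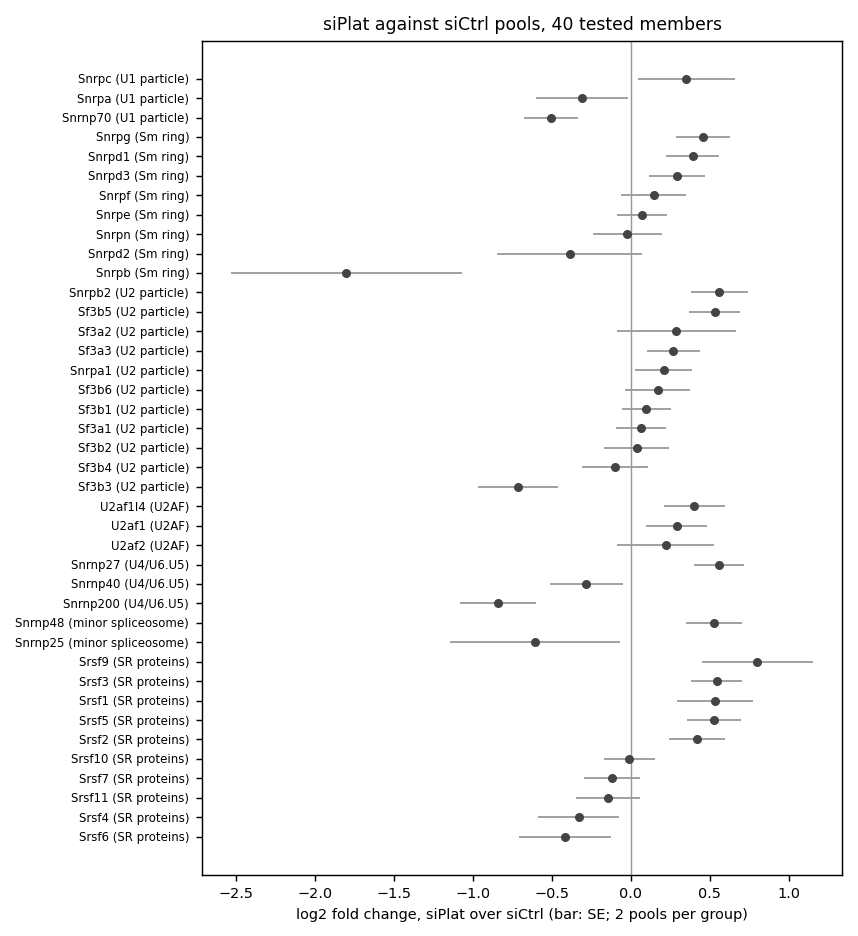
Log2 fold change of siPlat over siCtrl (x axis) for the 40 tested members by role; points are edgeR estimates and bars their SE, with 2 pools per group. Most points lie within 0.6 of 0, Snrpb has the widest bar, and 0 members passed an adjusted p of 0.05.

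Other splicing genes were read from 11 lists of 167 genes, from the LSm ring of U6 to the exon junction complex. In the pools, 7 of 164 tested genes rose and 0 fell in siPlat by edgeR, against 2.13% of all genes higher and 1.41% lower. Hnrnpa0, an hnRNP protein that binds AU-rich elements, rose from 2.74 and 2.68 CPM to 14.7 and 7.70 CPM (log2 fold change 2.04; edgeR adjusted p = 0.0223). Alyref, which couples splicing to mRNA export, rose from 5.21 and 4.45 to 14.3 and 14.2 CPM (1.56; edgeR adjusted p = 0.0223). Sart1 of the tri-snRNP (0.81), Bcas2 of the Prp19 complex (0.78), Rsrc1 (0.77), Phf5a, a small subunit of SF3B that the naming rule leaves out (0.73), and Rbm17 (0.65) also rose, each with both siPlat values above both siCtrl values. Of these 7, 0 passed without siCtrl 1 (edgeR adjusted p 0.0761 to 0.309) or without siCtrl 2 (edgeR adjusted p 0.0671 to 0.349), 3 passed with library totals as the only scaling and 2 with the replicate number as a block. Among the 12 oocyte markers, 3 fell (Gdf9, Zp1 and Mos) and 0 rose; their part in these results was not tested.

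In the single oocytes, 141 of the 167 genes were at 5 CPM or more, and without the 21 libraries their median log2 ratio of aged over young was 0.13, against 0.08 for all genes. Of the 141, 15 were past 1.5-fold higher, against 8.87% of all genes, and 2 lower, against 1.87%. All 7 genes of the LSm ring, which is built like the Sm ring but binds the tail of U6, were above 0. So were 5028 of all 8413 genes at 5 CPM or more. The LSm genes had a median of 0.55, and 3 were past 1.5-fold. With spike-in scaling over both young spike-in sets, 2 of them were above 0 and 5 below. Lsm4 was highest of all listed genes at 1.25, from 6.58 to 17.1 CPM, followed by Cwc27 of the activated spliceosome at 0.95. Hnrnpab (-0.84, from 24.0 to 12.9 CPM) and Cherp (-0.79, from 132 to 76.1 CPM) were lowest. With spike-in scaling the median of the 141 genes was -0.66, against -0.71 for all genes.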

How the data were processed

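The 2 tables deposited by the authors hold raw read counts per gene, not normalised; the single-oocyte table has 92 ERCC entries and 37 mitochondrially encoded genes, and the table of pools 0 of either. STAR 2.7.10b, HTSeq 0.13.5 and mm10 are named per the submitters' processing notes; annotation, strand setting and filters are not given in the sources used here. Overlapping genes therefore cannot be told apart. The labels' protocols name no molecular identifiers, so intervals cover counting error only.

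Members and gene lists were chosen with earlier results of these data known. Pools were tested with the quasi-likelihood test of edgeR 4.0.16 (R 4.3.3; TMM factors, default filter with a minimum count of 10 and total of 15, no covariate) on the whole table, with Benjamini-Hochberg adjustment over 11136 genes. On simulated counts the test called 36 of 100 genes changed 2-fold and 77 of 100 changed 4-fold, with 6 false calls. With nothing changed it called 2 genes. Smaller changes were not simulated. DESeq2 1.42.0 and limma-voom (limma 3.58.1) were alternatives. CPM of pools are after TMM scaling. Same-numbered siCtrl and siPlat libraries did not deviate together (correlation -0.0616 over 11136 genes), so no block was used. For single oocytes, counts were summed by age as CPM of all gene counts without ERCC, with ratios on log2(CPM + 1). Counts cover members whose levels in the groups compared average 5 CPM or more, beside all genes at that level. Exact Poisson intervals have 95% confidence. Libraries with a mitochondrial share above 5% were given separately. Exon lengths, overlaps and shared 50-base windows came from GENCODE gene models on GRCm38, the assembly mm10 names, and 19 members had over 10% of windows in another gene's transcript.

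Values are given for members passing the edgeR test in the pools (0 did), for the 10 members with the largest ratio of aged over young with and without those 21 libraries, for the 4 highest and lowest per length, for the 4 most and least variable, and for the U1 genes with Snrpb and Snrpn; other members are named for role, smallest adjusted p, or after their values were seen.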

Additional observations from a re-analysis of the deposited data

How the results depend on the processing

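Counts of called genes in the pools depended on the libraries. DESeq2 called 6 members and 657 genes, and edgeR without a low-count filter called 1 member, Snrnp200. Leaving out 1 library at a time gave 0 to 10 members and 157 to 1145 genes by edgeR, with 157 without siCtrl 1, 160 without siCtrl 2, 713 without siPlat 1 and 1145 without siPlat 2; the lone library was then assumed to vary like the other group. With the replicate number as a replicate block, 0 members and 273 genes were called. Of the 41 members in the pools, 13 changed the sign of their fold change in at least 1 of the 10 alternatives and 28 in 0. For aged over young, the members' median log2 ratio was -0.24 with all oocytes, 0.079 without the 21 libraries, -0.36 as a mean and -0.14 as a median over oocytes, -0.12 over nuclear counts, -1.66 with spike-in scaling and -0.75 with spike-in scaling without the 21 libraries. Members past 1.5-fold higher numbered 2, and 3 without the 21 libraries, 1 with the median over oocytes, with at least 20 CPM, and with spike-in scaling without the 21 libraries, and 0 with spike-in scaling of all oocytes. Members past 1.5-fold lower numbered 1, and 0 without the 21 libraries, over nuclear counts or at 20 CPM, 4 with the mean, 3 with the median, 32 with spike-in scaling and 27 with spike-in scaling without the 21 libraries, the last setting chosen after seeing the data. The members' median coefficient of variation of 0.174 became 0.223 as interquartile range over median. The cause of these shifts was not tested.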
